A study of Mus musculus with 32 samples.

Results

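CTCF knockdown was compared with a control shRNA in mouse fibroblasts at day 0, the earliest stage of a reprogramming study. Each group is represented by 1 list of open-chromatin sites made from ATAC-seq, an assay in which a transposase inserts sequencing adapters where DNA is accessible. Overlapping intervals were merged within each list. A site was called shared when the lists overlapped by at least 1 bp, gained when it lay in the CTCF shRNA list alone, and lost when it lay in the control list alone. The lists held 154612 sites with CTCF shRNA and 153962 sites with control shRNA. Together they gave 161465 sites, of which 7503 were gained, 6853 were lost and 147109 (91.1%) were shared.

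The day 0 cells carried a retroviral shRNA against Ctcf in one group and a retroviral shRNA labelled shLuci in the other, with 2 samples in each group. These 4 samples are part of a series of 32. The protocols name OG2 mouse embryonic fibroblasts, which carry a GFP reporter driven by regulatory DNA of Pou5f1, as the cells that received the shRNAs. The labels call the day 0 cells reprogramming cells, and whether they had received the reprogramming factors Oct4, Sox2, Klf4 and c-Myc by then is not stated. No source used here gives the time between shRNA infection and harvest or the remaining level of CTCF. Later populations from the same set served for comparison, each with CTCF shRNA and control shRNA: Thy1+ cells (days 3, 6 and 9), SSEA1-Thy1- cells and SSEA1+ cells (days 6 and 9), and GFP+ cells (day 12).

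CTCF is a zinc finger protein that binds a long GC-rich motif and stops the loop extrusion carried out by cohesin, so that it shapes chromatin loops and domain borders. It binds at many promoters and insulators, and its own binding sites are usually accessible to transposase. In fibroblasts, most accessible enhancers are instead occupied by AP-1, Tead and Runx factors, and during reprogramming the fibroblast enhancers close while those of the pluripotency network open.

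The promoters below are shown because they belong to genes of the pluripotency, trophoblast and neural lists whose promoter site was present in only 1 of the day 0 lists. They are the 5 list genes whose changed site was centred nearest to the gene start, within 129 bp of it. Each window runs from 250 bases before to 50 bases after the annotated gene start (RefSeq, GRCm38.p6). The coordinates given with a sequence are those of this window and not those of the lost or gained site. Capitals mark matches, on either strand, to the octamer ATGCNAAT, the Klf motif GGGNGTGG, the Tead motif GGAATG and the CCAAT box, and the Klf4 window held no match. A match is a match of letters and does not show that a factor was bound.
Zfp42 (lost site, chr8:43306960-43307259, minus strand): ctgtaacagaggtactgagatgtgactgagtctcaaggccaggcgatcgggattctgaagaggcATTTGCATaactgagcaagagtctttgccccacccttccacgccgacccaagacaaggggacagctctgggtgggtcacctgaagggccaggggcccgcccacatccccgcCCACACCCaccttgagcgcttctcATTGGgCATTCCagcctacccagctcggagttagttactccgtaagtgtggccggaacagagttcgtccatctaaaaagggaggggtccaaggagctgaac
Fgf4 (lost site, chr7:144861136-144861435, plus strand): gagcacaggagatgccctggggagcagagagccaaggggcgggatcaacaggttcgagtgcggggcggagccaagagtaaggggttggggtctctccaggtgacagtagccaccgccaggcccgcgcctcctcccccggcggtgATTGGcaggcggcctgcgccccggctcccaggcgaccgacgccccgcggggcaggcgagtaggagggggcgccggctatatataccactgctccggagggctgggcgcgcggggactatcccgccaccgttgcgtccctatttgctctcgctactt
Klf4 (lost site, chr4:55532426-55532725, minus strand): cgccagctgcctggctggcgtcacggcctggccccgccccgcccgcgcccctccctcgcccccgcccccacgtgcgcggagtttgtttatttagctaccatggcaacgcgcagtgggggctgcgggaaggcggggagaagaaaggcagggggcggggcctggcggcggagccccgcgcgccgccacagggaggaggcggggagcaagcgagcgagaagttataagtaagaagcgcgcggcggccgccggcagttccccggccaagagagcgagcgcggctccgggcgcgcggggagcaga
Ascl2 (gained site, chr7:142969215-142969514, minus strand): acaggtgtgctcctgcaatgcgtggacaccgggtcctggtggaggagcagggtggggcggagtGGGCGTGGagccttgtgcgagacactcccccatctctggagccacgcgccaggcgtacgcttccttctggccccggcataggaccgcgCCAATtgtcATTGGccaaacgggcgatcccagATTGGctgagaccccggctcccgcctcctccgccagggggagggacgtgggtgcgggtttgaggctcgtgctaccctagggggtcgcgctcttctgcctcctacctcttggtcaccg
Neurog1 (gained site, chr13:56252131-56252430, minus strand): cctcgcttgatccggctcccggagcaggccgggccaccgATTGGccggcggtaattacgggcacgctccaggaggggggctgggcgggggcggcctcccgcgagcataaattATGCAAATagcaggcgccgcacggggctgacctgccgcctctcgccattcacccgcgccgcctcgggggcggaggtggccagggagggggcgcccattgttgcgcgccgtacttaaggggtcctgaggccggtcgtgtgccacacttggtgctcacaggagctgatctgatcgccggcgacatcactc
In these sequences Zfp42, a zinc finger gene used as a marker of pluripotent cells, held 1 octamer, 1 Klf, 1 Tead and 1 CCAAT match. Neurog1, which encodes a neuronal basic helix-loop-helix factor, held 1 octamer and 1 CCAAT match, and Ascl2, a trophoblast basic helix-loop-helix gene, held 1 Klf and 3 CCAAT matches. The Klf match of Ascl2 lay in the promoter window and just outside the gained site. Of all 21263 promoter windows of this length, 2.92% held the octamer, 19.4% the Klf motif, 13.6% the Tead motif and 38.2% the CCAAT box.

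Fibroblast marker promoters were open in both day 0 lists. A site lay at the promoter of 13 of 13 fibroblast markers with CTCF shRNA and 13 of 13 with control shRNA, among them the collagen gene Col1a1, the surface marker Thy1 and the mesenchymal regulator Prrx1. Most were still open in GFP+ cells, at 11 of 13 with CTCF shRNA and 10 of 13 with control shRNA, so these promoters alone do not set the day 0 cells apart. The genes of these markers with 10 kb on either side held 123 sites with CTCF shRNA and 116 with control shRNA at day 0, against 63 with CTCF shRNA and 49 with control shRNA in GFP+ cells. Of 6 pluripotency markers, 3 had a promoter site in each day 0 list, against 6 in each GFP+ list. The 3 were not the same, since Zfp42 had a site with control shRNA only and Tdgf1 with CTCF shRNA only. Promoters of other cell types were also open in part, at 14 of 18 neural markers with CTCF shRNA and 13 of 18 with control shRNA, 10 of 16 haematopoietic and 10 of 14 endothelial markers in either list, 3 of 12 keratinocyte markers in either list, and 11 of 17 endoderm and trophoblast markers in either list. Equal totals hid a swap among the endoderm and trophoblast markers, as Cdx2 had a site with control shRNA only and Ascl2 with CTCF shRNA only. The promoter of Ctcf itself (chr8:105636237-105636636) held a site in both day 0 lists and in all 8 later lists. Accessibility of this promoter does not measure how much CTCF transcript the shRNA left.

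The day 0 lists differed at few sites and in nearly equal numbers in each direction. Gained sites were 4.85% of the CTCF shRNA sites (95% interval 4.75 to 4.96) and lost sites were 4.45% of the control sites (95% interval 4.35 to 4.56). Of all sites that differed, 52.3% were gained (51.4 to 53.1). The intervals are exact binomial ones and cover counting error over sites only. Because each group has 1 pooled list, no difference at day 0 could be set against replicates or given a p-value. The total length of open chromatin was 62.2 Mb with CTCF shRNA and 62.0 Mb with control shRNA.

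The ratio of CTCF shRNA sites to control sites, 1.00 at day 0, was lower than in the later populations. It was 1.10 for Thy1+ cells and 1.08 for SSEA1-Thy1- cells. The ratio for SSEA1+ cells was 1.35 and that for GFP+ cells 1.13. Depth per library is unknown for all of these lists, and its part in these ratios was not tested.

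Nearly all shared sites, 146942 of 147109, had the same start and end in both lists, so the comparison reads presence or absence at common positions. Sites close to the 1 bp threshold were rare. Only 4 shared sites overlapped by less than 400 bp, the smallest overlap being 22 bp. On the other side, 162 gained sites (2.16%) lay within 400 bp of a control site and 142 lost sites (2.07%) lay within 400 bp of a CTCF shRNA site, at smallest distances of 1 bp and 7 bp. The median distance was 3.57 kb from a gained site to the nearest control site and 3.77 kb from a lost site to the nearest CTCF shRNA site. A lost site seldom had a gained one beside it, since only 69 (1.01%) had a gained site within 1 kb and the median distance between them was 80.6 kb. The lists hold no score or read count, so a site missing from a list may have had fewer reads than the caller required or none.

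Gained and lost sites were spread over all autosomes and X. The gained share ran from 4.23% on chromosome X to 5.39% on chromosome 11, and the lost share from 3.31% on chromosome X to 4.96% on chromosome 5. On chromosome Y the lists held 14 sites with CTCF shRNA and 15 with control shRNA, with 1 lost. Of 9794 windows of 100 kb that held a changed site, 6545 held exactly 1 and 1877 held both a gained and a lost site. In 20 windows at least 4 sites were gained and none lost, and in 21 windows at least 4 were lost and none gained. The highest count of lost sites in 1 window was 5, reached at Ccdc85c and Ccnk (chr12:108200001-108300000, 10 sites with CTCF shRNA against 15 with control shRNA). The same count was reached at the class I histocompatibility genes H2-Q6, H2-Q7 and H2-Q10 (chr17:35400001-35500000, 5 sites with CTCF shRNA against 10 with control shRNA). The H2-Q genes are near-identical copies, so reads there may be assigned to the wrong copy and this value is uncertain.

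Changed sites lay less often at gene starts than shared ones and more often inside genes. Within 1 kb of a gene start were 10.8% of gained sites (10.1 to 11.5) and 10.5% of lost sites (9.78 to 11.2), against 15.3% of shared sites (15.1 to 15.5). For genes without a listed start, either gene end was used in its place. Gene bodies outside these windows held 54.2% of gained, 55.7% of lost and 48.6% of shared sites. The space between genes held 35.1% of gained, 33.8% of lost and 36.1% of shared sites. Gained and lost sites thus had nearly the same placement, with overlapping intervals in all 3 classes of position.

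The same sites were then looked up in the 8 later lists, which the rule for gained and lost sites did not use. Whether the positions in the lists had been set jointly for all populations was not tested. Presence in a later list may therefore not be independent of the day 0 lists. Most changed sites were open in some later population: 91.0% of gained and 92.1% of lost sites were present in at least 1 of these lists, as were 91.1% of shared sites. Only 676 gained sites (9.01%) and 541 lost sites (7.89%) were found in none of them. All 8 lists held 17.4% of gained and 18.1% of lost sites, against 24.6% of shared sites.

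Gained and lost sites followed almost the same course through the populations. In Thy1+ cells, gained sites were present at 77.3% with CTCF shRNA and 74.9% with control shRNA, and lost sites at 76.6% with CTCF shRNA and 74.0% with control shRNA. By the GFP+ stage these shares were 40.6% with CTCF shRNA and 35.7% with control shRNA for gained sites, and 42.3% with CTCF shRNA and 38.9% with control shRNA for lost sites. Shared sites differed from both kinds. They were more often present in Thy1+ cells (82.8% with CTCF shRNA, 85.8% with control shRNA) and less often in SSEA1-Thy1- cells (50.1% with CTCF shRNA, 48.5% with control shRNA), where gained sites were at 58.6% with CTCF shRNA and 54.1% with control shRNA, and lost sites at 59.2% with CTCF shRNA and 54.9% with control shRNA. The widest gap between an shRNA pair was that of shared sites in SSEA1+ cells, with 68.8% present with CTCF shRNA against 37.7% with control shRNA. For gained sites the shares were 62.8% with CTCF shRNA and 50.4% with control shRNA, and for lost sites 62.0% with CTCF shRNA and 51.7% with control shRNA.

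**Figure D1:**
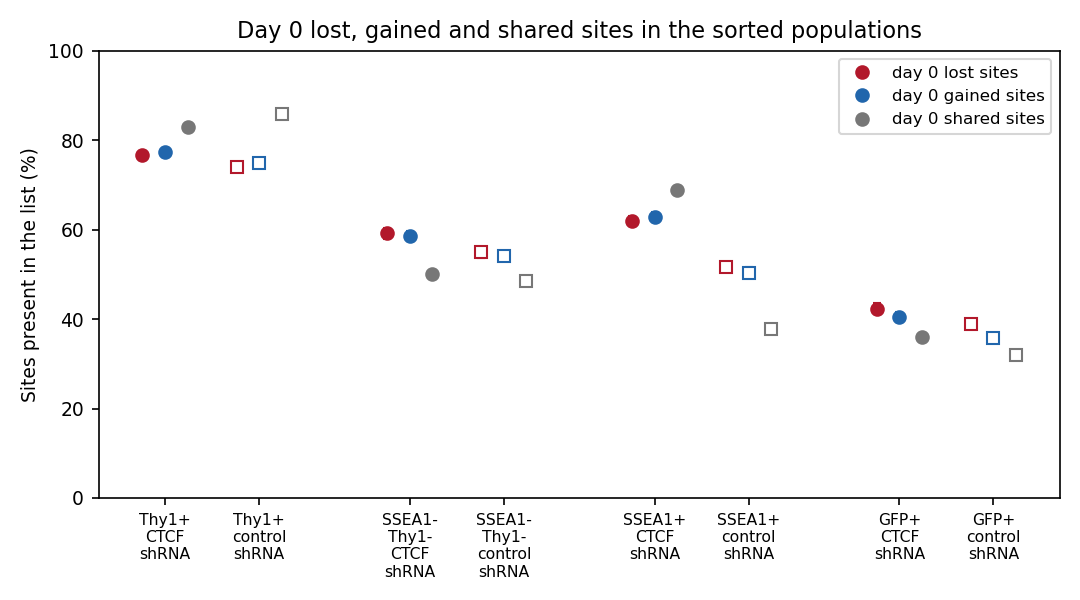
Share of day 0 lost, gained and shared sites (vertical axis, percent) found in each of the 8 later lists (horizontal axis, CTCF shRNA left of control shRNA in each population), with filled circles for CTCF shRNA, open squares for control shRNA and exact 95% intervals that are mostly smaller than the symbols. Lost and gained sites lie within a few percent of each other in every list, while shared sites lie above them in Thy1+ cells and below them in SSEA1-Thy1- and GFP+ cells.

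Gained and lost sites differed little in direction in the later populations. The whole CTCF shRNA lists there were 1.08 to 1.35 times as long as the control lists, so a control-only share is read here against the other class of sites and not against equal numbers. Among lost sites that differed between the Thy1+ lists, 831 were present with CTCF shRNA only and 657 with control shRNA only, a control-only share of 44.2% (41.6 to 46.7). Among gained sites the counts were 826 with CTCF shRNA only and 647 with control shRNA only, a control-only share of 43.9% (41.4 to 46.5). In SSEA1-Thy1- cells the control-only share was 38.0% for gained and 38.4% for lost sites, and in GFP+ cells it was 35.8% (33.2 to 38.5) for gained and 39.8% (37.0 to 42.7) for lost sites. The one population in which the intervals of gained and lost sites were apart was SSEA1+, with 20.4% (18.5 to 22.5) for gained and 25.6% (23.4 to 28.0) for lost sites, which is the order seen at day 0. Sites shared at day 0 had control-only shares of 63.6% in Thy1+ and 43.9% in SSEA1-Thy1- cells, and of only 2.49% in SSEA1+ and 33.4% in GFP+ cells.

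**Figure D2:**
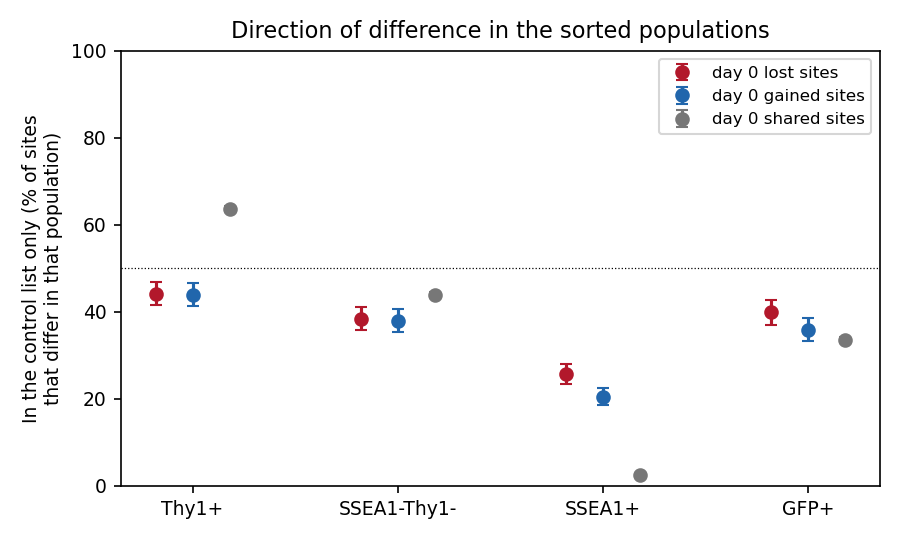
For sites that differ between the CTCF shRNA and control shRNA lists of a later population (horizontal axis), the share found in the control list only (vertical axis, percent), by day 0 class, with exact 95% intervals over sites and a dotted line at equal numbers. Lost and gained sites overlap in 3 populations and are apart in SSEA1+ cells (25.6% and 20.4%), and shared sites run from 63.6% in Thy1+ cells to 2.49% in SSEA1+ cells.

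A site that had changed at day 0 more often differed between the shRNA lists of 3 later populations. In Thy1+ cells 19.6% of gained and 21.7% of lost sites differed, against 10.9% of shared sites. In SSEA1-Thy1- cells the shares were 18.7%, 18.4% and 12.9% for gained, lost and shared sites, and in GFP+ cells they were 17.1%, 16.9% and 11.8%. SSEA1+ cells had the reverse order, since 21.0% of gained and 21.1% of lost sites differed there, against 32.7% of shared sites.

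Sites at gene starts changed more rarely than other sites. Within 1 kb of a gene start, 3.46% of CTCF shRNA sites were gained and 3.09% of control sites lost. These shares were 5.38% and 5.07% in gene bodies, and 4.73% and 4.18% between genes. The counts by gene that follow are of another kind, since all sites in the windows of a gene must change. A promoter window is the gene start with 1 kb on either side, and 17492 protein-coding genes had a start in the table. A window gained its only site or sites with CTCF shRNA in 89 genes (0.509% of all those tested) and lost them in 137 genes (0.783%). Both lists held a site in 11564 windows and neither did in 5702. As a share of what could change, 1.54% of windows empty in the control gained a site (1.24 to 1.89) and 1.17% of windows open in the control lost theirs (0.984 to 1.38). Of the 226 changed windows, 39.4% were gained (33.0 to 46.1). Counted as sites, gene starts gave 52.9% gained (807 of 1526, 50.3 to 55.4), near the 52.3% over all changed sites. For 4395 further genes without a listed start, either gene end served as the window, of which 38 (0.865%) gained and 42 (0.956%) lost a site, and such a window can lie at the 3′ end.

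Promoters that changed at day 0 were mostly open later in either shRNA arm. Of the 89 gained promoters, 71 had a site in Thy1+ cells with CTCF shRNA and 73 with control shRNA, and in GFP+ cells 62 had one with CTCF shRNA and 59 with control shRNA. Of the 137 lost promoters, 119 had a site in Thy1+ cells with CTCF shRNA and 110 with control shRNA, and in GFP+ cells 103 had one with CTCF shRNA and 100 with control shRNA. All 8 later lists held a site at 28 gained (31.5%) and 63 lost promoters (46.0%), against 93.1% of promoters open in both day 0 lists and 2.67% of those open in neither. Only 2 gained and 2 lost promoters had no site in any later list.

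Single sites at protein-coding starts gave the same picture. Present in all 8 later lists were 20.8% of the 336 gained sites there (16.6 to 25.6), 32.6% of the 301 lost sites (27.3 to 38.2) and 84.3% of the 13088 shared sites. Away from these starts the shares were 17.3%, 17.4% and 18.8%, so that this share set changed and shared sites apart mainly at promoters. Changed and shared sites also differed elsewhere by another measure. Away from these starts, the median number of later lists that held a site was 5 for gained, 5 for lost and 4 for shared sites.

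Pluripotency genes held the largest number of changed promoters among the gene lists, which are 376 genes in 18 lists by function. By gene start, 1 of 17 pluripotency promoters was gained and 3 of 17 were lost, where all genes gave 0.509% and 0.783%. By either gene end, 1 of 11 was gained and 1 of 11 was lost, where all genes gave 0.865% and 0.956%. Zfp42 lost a site at chr8:43306939-43307338, centred 129 bp before the gene start. Fgf4, a growth factor secreted by pluripotent cells, lost a site at chr7:144861216-144861615, centred 29 bp after the start. Klf4, one of the reprogramming factors, lost a site at chr4:55532340-55532739, centred 64 bp before the start. The sites of all 3 were present in the day 0 control list and in all 8 later lists, and absent from the day 0 CTCF shRNA list alone.

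Prdm14, a zinc finger regulator of pluripotency and germ cells, lost a site (chr1:13127055-13127454) that recurred in only 3 later lists, Thy1+ with CTCF shRNA and both GFP+ lists. The gained pluripotency promoters were those of Tdgf1, a co-receptor for Nodal, and Tdh, a threonine dehydrogenase of embryonic stem cells. The Tdgf1 site (chr9:110946576-110946975) was absent from the Thy1+ and SSEA1-Thy1- control lists and present in the other 6 later lists. The Tdh site (chr14:63508616-63509015) was present in all 8. Pou5f1, which encodes Oct4, had 2 promoter sites in both day 0 lists, and no change was called there.

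Genes of the other lineages changed 1 or 2 at a time. Among neural genes, Neurog1 (chr13:56252014-56252413) and Sox1 (chr8:12395109-12395508), a neuroectoderm factor, gained a promoter site and Neurod1 (chr2:79456598-79456997), a neuronal differentiation factor, lost one, of 14 genes with a start. Ascl2, an imprinted gene that stands in the trophoblast list as well, gained a site 22 bp from its start (chr7:142969043-142969442), and Cdx2, a regulator of trophectoderm and gut, lost one (chr5:147306725-147307124). The epithelial list of 15 genes with a start lost the promoter site of Cldn3, a tight junction claudin (chr5:134985683-134986082), and by either gene end that of Pkp3, a desmosome protein (chr7:141090257-141090656). The sites of Neurog1, Ascl2, Neurod1, Cdx2 and Cldn3 were present in all 8 later lists, that of Sox1 in 7 and that of Pkp3 in 6.

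The fibroblast program showed no called promoter change. None of 24 genes of fibroblast matrix and stroma, 25 genes of AP-1, Tead and Runx factors and partners, 24 TGF-beta and contractile genes or 24 genes of cell cycle arrest and p53 gained or lost its promoter sites. The same held for 24 genes of chromatin architecture, which include the cohesin subunits and loaders, for 22 interferon genes, 16 heat shock and stress genes, 16 haematopoietic, 14 endothelial and 12 keratinocyte genes. Beside the background rates of 0.509% gained and 0.783% lost, a count of 0 in a list of this size is not particular to it. The mesenchymal factors lost 1 site, at an end of Ebf2 (chr14:67233168-67233567). The remaining list changes were at gene ends, with a loss at the piRNA pathway gene Piwil2 and a gain at Actb, cytoplasmic actin.

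Over all 18 lists, 4 of 259 genes with a start gained and 6 lost their promoter sites, and by either gene end 2 of 109 gained and 4 lost them. The shares over all genes were 0.509% gained and 0.783% lost by start, and 0.865% gained and 0.956% lost by either end. Gene families taken by symbol prefix added few. Hoxd4 was gained and Hoxd12 lost among 22 Hox genes with a start. Of 57 clustered protocadherins, whose promoter choice depends on CTCF, Pcdhb3 was gained and Pcdhb6 lost by either gene end. Among 333 Zfp genes with a start 2 were gained and 3 lost, among 944 olfactory receptor genes 2 were gained and 3 lost, and among 90 keratin genes none was gained and 1 lost. The Zfp and olfactory receptor counts are near or below the shares over all genes. Near-identical copies are frequent in the protocadherin, Zfp and olfactory receptor families, so calls there are uncertain.

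Wider neighbourhoods were counted as the gene body plus 50 kb upstream and downstream. Near pluripotency genes there were 234 sites with CTCF shRNA and 227 with control shRNA, of which 9.83% were gained (6.33 to 14.4) and 7.05% lost. Near epithelial genes there were 315 sites with CTCF shRNA and 300 with control shRNA, of which 9.52% were gained (6.52 to 13.3) and 5.00% lost. Mesenchymal factors had 445 sites with CTCF shRNA and 433 with control shRNA, with 7.64% gained (5.35 to 10.5) and 5.08% lost. Neural genes had 164 sites with CTCF shRNA and 161 with control shRNA, with 9.15% gained (5.21 to 14.6) and 7.45% lost. These 4 gained shares lay above the 4.85% of all sites, with intervals that did not include it. With 20 kb or 100 kb in place of 50 kb, that held at both distances for pluripotency genes alone among the 4 (9.45%, 4.98 to 15.9, and 8.10%, 5.67 to 11.1). The interval included 4.85% for epithelial genes at 20 kb (8.15%, 4.63 to 13.1), for mesenchymal factors at 100 kb (6.47%, 4.68 to 8.67) and for neural genes at 100 kb (6.32%, 3.79 to 9.80). At 100 kb pluripotency genes had 34 gained and 34 lost sites. The lost share there was 8.10% (5.67 to 11.1), above the 4.45% of all control sites. At 20 kb and 50 kb the interval of the lost share (4.44 to 15.1 and 4.08 to 11.2) included 4.45%. Endoderm and trophoblast genes had 8.02% lost (4.56 to 12.9) and 7.03% gained (3.79 to 11.7) at 50 kb. Their lost intervals at 20 kb (4.11 to 16.1) and 100 kb (3.76 to 9.26) included 4.45%.

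Fibroblast matrix genes had 432 sites with CTCF shRNA and 434 with control shRNA, with 4.17% gained (2.49 to 6.51) and 4.61% lost. This gained interval overlapped those of the 4 lists above. At 100 kb the gained share was 3.10% (1.90 to 4.74), below the 4.85% of all sites, while the interval at 20 kb (1.89 to 6.62) included it. AP-1, Tead and Runx genes had 505 sites with CTCF shRNA and 508 with control shRNA, with 3.96% gained (2.44 to 6.05) and 4.53% lost. Architecture genes had 7.35% gained (4.71 to 10.8) and 4.61% lost, and imprinted loci had 5.79% gained and 6.98% lost. Sites near 1 gene are neighbours and not independent, so the intervals are too narrow.

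Summed over a gene and 10 kb on either side, 3426 of 21887 protein-coding genes (15.7%) had a net gain and 2882 (13.2%) a net loss of at least 1 site. No changed site at all was found at 14708 genes. A net change of 4 or more was reached by 33 genes for gain and 25 for loss. The genes with the largest net change were mostly long, with a median length of 355 kb for the 10 largest gains and 457 kb for the 10 largest losses, against 17.2 kb for all genes. The tenth place among gains was shared, since 26 genes had a net gain of 4. From these Nhlh1, Sephs1 and Acacb were taken by the highest share of changed sites, which favours genes with few sites.

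The largest net loss was at Rora, which encodes a nuclear receptor, with 58 sites with CTCF shRNA and 66 with control shRNA. Of these, 1 was gained and 9 were lost. Pde7b, a cyclic AMP phosphodiesterase, had 27 sites with CTCF shRNA and 33 with control shRNA, and the axon guidance gene Sema5a had 59 with CTCF shRNA and 65 with control shRNA. Robo2, a Slit receptor, had 61 with CTCF shRNA and 67 with control shRNA, with 6 sites lost and none gained. Ltbp1, whose product binds latent TGF-beta, had 58 sites with CTCF shRNA and 63 with control shRNA. Map3k20, a stress-activated kinase, had 19 with CTCF shRNA and 24 with control shRNA, and the synaptic scaffold gene Dlgap1 had 62 with CTCF shRNA and 67 with control shRNA. Ccdc85c had the largest part of its sites changed among these genes, with 11 sites with CTCF shRNA and 16 with control shRNA, 5 lost and none gained. Astn2 and Pakap each had 6 lost sites and 1 gained.

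The largest net gain was at Tenm3, a teneurin adhesion receptor, with 96 sites with CTCF shRNA and 90 with control shRNA, 7 gained and 1 lost. Foxp1, a forkhead repressor, had 82 sites with CTCF shRNA and 77 with control shRNA, and the RNA-binding protein gene Msi2 had 37 with CTCF shRNA and 32 with control shRNA. Klf12 had 36 with CTCF shRNA and 31 with control shRNA, and Magi1, a junctional scaffold, had 59 with CTCF shRNA and 54 with control shRNA. For Xylt1, which starts glycosaminoglycan chains, the counts were 23 with CTCF shRNA and 18 with control shRNA, and for Frmd4b 34 with CTCF shRNA and 29 with control shRNA. Among genes with a net gain of 4, the neural helix-loop-helix gene Nhlh1 had 6 sites with CTCF shRNA and 2 with control shRNA. Acacb, the mitochondrial acetyl-CoA carboxylase, had 9 with CTCF shRNA and 5 with control shRNA, and Sephs1 had 8 with CTCF shRNA and 4 with control shRNA.

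**Figure D3:**
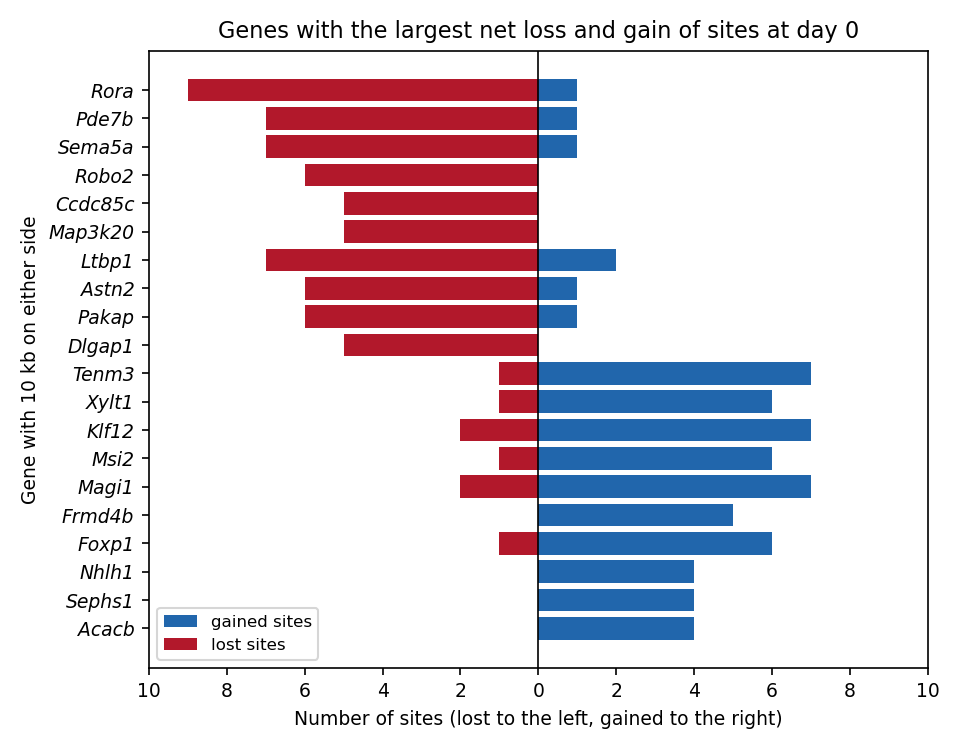
Number of sites (horizontal axis) gained to the right and lost to the left of 0 at day 0 for the 10 genes with the largest net loss and the 10 with the largest net gain, in the gene and 10 kb on either side. Rora has 9 lost and 1 gained site, and Tenm3 has 7 gained and 1 lost.

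In the later populations the net-loss genes had more sites with CTCF shRNA than with control shRNA. This was so for 10 of 10 genes in Thy1+ cells and 8 of 10 in SSEA1-Thy1- cells, then for 10 of 10 in SSEA1+ and 8 of 10 in GFP+ cells. Rora had 84 sites with CTCF shRNA and 81 with control shRNA in Thy1+ cells, and 69 with CTCF shRNA against 48 with control shRNA in SSEA1+ cells. Summed over these 10 genes, Thy1+ cells had 679 sites with CTCF shRNA and 620 with control shRNA, and SSEA1-Thy1- cells 466 and 429. SSEA1+ cells had 545 sites with CTCF shRNA and 370 with control shRNA, and GFP+ cells 218 with CTCF shRNA and 181 with control shRNA. The net-gain genes had more sites with CTCF shRNA in 6, 6, 9 and 7 of 10 cases in the order Thy1+, SSEA1-Thy1-, SSEA1+ and GFP+. Their sums were 567 with CTCF shRNA and 509 with control shRNA in Thy1+ cells, and 469 and 431 in SSEA1-Thy1- cells. In SSEA1+ cells these sums were 501 with CTCF shRNA and 402 with control shRNA, and in GFP+ cells 277 and 213. The whole CTCF shRNA lists of these populations were longer than the control lists too, with ratios of 1.10, 1.08, 1.35 and 1.13 in the same order. Both sets of genes were picked by their day 0 difference, and the part of list length in these counts was not tested.

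Promoters with a changed site had fewer CpG dinucleotides than promoters open in both lists. In the windows of 300 bases, the ratio of observed to expected CpG had a median of 0.46 in 101 gained windows and 0.47 in 138 lost windows, against 0.78 in 11728 shared windows and 0.22 in 9296 windows with no site. A ratio of 0.6 or more, typical of CpG islands, was found in 33.7% of gained windows (24.6 to 43.8) and 34.8% of lost windows (26.9 to 43.4), against 75.4% of shared windows. Median GC content was 58.7% in gained, 57.5% in lost and 62.0% in shared windows, and 48.3% in windows with no site. These windows of 300 bases were counted per gene start, 21263 in all, and are not the 1 kb windows per gene used above. The 101 gained windows belonged to 98 genes and the 138 lost windows to 131 genes. Read as rates over the windows of 300 bases, 2.74% of empty CpG-rich and 0.822% of empty CpG-poor windows gained a site. Of windows open in the control, 0.540% of CpG-rich (48 of 8895) and 3.03% of CpG-poor ones (90 of 2971) lost theirs.

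**Figure D4:**
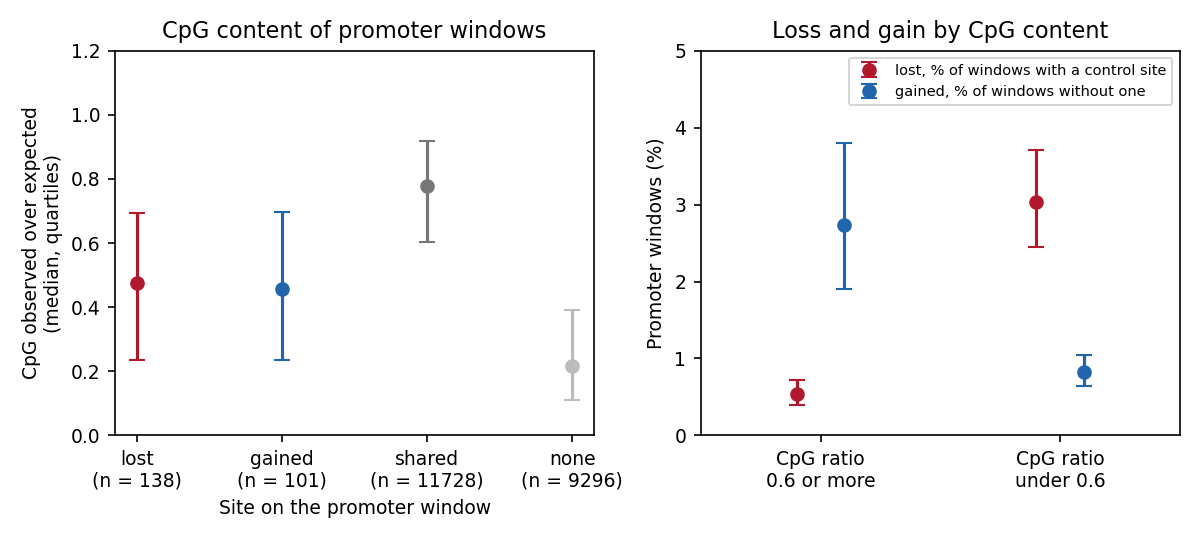
Left, median and quartiles of the CpG observed over expected ratio (vertical axis) in promoter windows by the class of their day 0 site. Right, percent of promoter windows that lost or gained a site (vertical axis) by CpG ratio, with exact 95% intervals over windows; losses are at 3.03% in CpG-poor and 0.540% in CpG-rich windows, and gains run the other way.

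The letters of the CTCF core were rare in changed promoters, as in all promoters. The core was searched as CCA, AG and GGC with 2 free bases between neighbours, on both strands of the windows of 300 bases. It was present in 3.96% of gained windows (4 of 101, 1.09 to 9.83) and 2.90% of lost windows (4 of 138, 0.80 to 7.26), against 2.92% of shared windows (2.62 to 3.24), 1.59% of windows with no site (1.35 to 1.87) and 2.34% of all windows. The lost interval included the share of shared windows, and the gained interval included that of windows with no site. With a looser spelling the core was in 10.9% of gained windows (5.56 to 18.7) and 10.9% of lost windows (6.21 to 17.3), against 13.7% of shared windows (13.1 to 14.3) and 5.02% of windows with no site (4.59 to 5.49). The gained share was then above that of windows with no site, with intervals apart. Gained windows also had the higher median GC content of these 2 classes, and its part in this was not tested. Of windows open in the control, 1.16% lost their site with a core (4 of 346) and 1.16% without one. Of empty windows, 2.63% gained a site with a core (4 of 152, 0.722 to 6.60) and 1.05% without one. Sites away from promoters were not searched, because only promoter sequence was used here.

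The cores that lay inside a changed site are shown next, with up to 20 bases on either side and the core in capitals (RefSeq, GRCm38.p6). They are the only 6 such promoters. The coordinates given are those of the bases shown and not those of the whole site.
Zcwpw1 (gained site, chr5:137787820-137787851, plus strand): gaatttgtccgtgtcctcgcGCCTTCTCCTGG
Cdhr4 (gained site, chr9:107992417-107992468, plus strand): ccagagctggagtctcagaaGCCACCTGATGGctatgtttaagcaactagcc
Cdsn (gained site, chr17:35551878-35551922, plus strand): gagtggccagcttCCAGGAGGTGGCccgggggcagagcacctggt
Ttyh1 (lost site, chr7:4119413-4119464, plus strand): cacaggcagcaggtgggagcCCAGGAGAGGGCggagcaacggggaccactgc
Mfsd6l (lost site, chr11:68556019-68556070, plus strand): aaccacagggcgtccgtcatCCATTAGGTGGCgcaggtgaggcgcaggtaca
Gpha2 (lost site, chr19:6226365-6226416, plus strand): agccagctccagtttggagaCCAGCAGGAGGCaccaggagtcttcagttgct
The lost sites of Ttyh1, Mfsd6l and Gpha2 were present in all 8 later lists. Of the gained sites, those of Zcwpw1 and Cdhr4 were present in 6 later lists and that of Cdsn, a corneodesmosome gene, in 2. In Gpha2 and Cdhr4 the core begins within 20 bp of the gene start. In Fam189a1 (lost) and Mpp2 (gained) the core lay in the promoter window and outside the changed site.

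Of 6 other motifs searched, the AP-1 motif TGANTCA was the one whose share in gained windows had an interval apart from that of shared windows. It was present in 11.9% of gained windows (12 of 101, 6.29 to 19.8) and 5.80% of lost windows, against 5.40% of shared windows (5.00 to 5.82), 8.96% of windows with no site and 6.99% of all windows. The gained interval thus included the share of windows with no site, the class from which gained windows come. In the central 200 bases the gained and shared intervals overlapped, at 6.93% of gained (2.83 to 13.8) and 3.79% of shared windows (3.46 to 4.16). The Runx motif TGTGGT was present in 14.9% of gained and 14.5% of lost windows, against 11.5% of shared windows and 15.0% of all windows. The Klf motif was present in 27.7% of gained (19.3 to 37.5) and 22.5% of lost windows, against 23.6% of shared windows. Windows with no site held it at 14.1% (13.4 to 14.8), with an interval apart from that of gained windows. In the central 200 bases these intervals were apart too, at 24.8% of gained windows (16.7 to 34.3) and 11.1% of windows with no site (10.5 to 11.8). The Klf motif is rich in G, and median GC content was 58.7% in gained windows and 48.3% in windows with no site. The part of base composition in this difference was not tested. The CCAAT box was in 38.6% of gained, 31.2% of lost and 38.9% of shared windows, and the Tead motif in 10.9%, 11.6% and 11.4%. The octamer was present in 3.96% of gained and 2.17% of lost windows, against 2.41% of shared windows.

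Sites over microRNA hairpins changed at 7 of 1005 hairpins. Of 88 hairpins under a site with CTCF shRNA, 1 (1.14%) had a gained site, Mir7033, and of 93 under a control site, 6 (6.45%) had a lost one, where all sites gave 4.85% gained and 4.45% lost. The 6 hairpins lay under 5 lost sites, a count near the share over all sites. Mir25 and Mir93, neighbours inside the replication gene Mcm7, shared a single lost site (chr5:138165225-138165624) that was present in 7 of the 8 later lists. Their mature forms are shown because this site covers both hairpins, with the seed (bases 2 to 8) in capitals.
mmu-miR-25-3p: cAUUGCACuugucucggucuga
mmu-miR-93-5p: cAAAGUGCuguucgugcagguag
The seeds differ, and miR-25 belongs to the miR-92 seed family while miR-93 belongs to the miR-17 seed family. No microRNA level was measured in these data.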

How the data were processed

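ATAC-seq libraries were prepared from nuclei with Tn5 transposase, per the labels' protocols. The submitters' processing notes name MACS2, a peak caller, and Bowtie2, an aligner, beside Picard, SAMtools, cutadapt, Trim Galore and FastQC, with mm10 (GRCm38). Versions, thresholds, any shift of reads for the transposase and the pooling of samples are given nowhere in the sources used here. The authors deposited peak intervals of 400 bp, 1 list per group, whose score column is 0 throughout, so depth is unknown. Intervals were merged and compared with Python 3.11.15, pandas 2.3.3 and scipy 1.17.1, and the code was tested on simulated data. Gene positions, starts and sequences are from RefSeq, GRCm38.p6; 79.9% of 21887 protein-coding genes had a start. Shares carry exact Clopper-Pearson 95% intervals. Named genes were list genes whose promoter held a site in exactly 1 day 0 list, the 10 largest net gains and losses, and Ctcf, Thy1, Fut4 and Pou5f1, of which all 4 promoters were open in both lists. Members and lists were chosen with earlier results of these data known. The histone prefixes matched no symbol. The lists of day 10 and of unsorted day 12 cells were not used here.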

Additional observations from a re-analysis of the deposited data

How the results depend on the processing

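Of 118 alternatives to 50 results, 93 were labelled the same and 25 moved. Shares had to stay within the main interval, and named promoters in the main class. Counts of promoters had no interval and only had to stay within a wide set factor of the main count. Beside 137 lost and 89 gained promoters, there were 136 and 91 at 500 bp, and 129 and 92 at 2500 bp. Autosomal genes alone gave 134 and 84. With gene start windows of 500 bp, the shares at starts were 6.16% of gained, 6.84% of lost and 12.4% of shared sites, and with 2500 bp they were 18.7%, 17.4% and 21.4%. A stricter spelling of the CTCF core was found in 0 gained, 0 lost and 0.0938% of shared promoter windows, a looser one in 10.9%, 10.9% and 13.7%, and the main core in the central 200 bases of 2.15% of shared windows. Of 16 named promoters, 14 were called the same way at 500 bp and 6 at 2500 bp (Zfp42, Fgf4, Cldn3, Cdx2, Neurog1 and Tdh). The other calls moved to no change, through further sites in the wider window or, at 500 bp, because the sites of Actb and Piwil2 lay outside. Leaving out a replicate was not run. No paired analysis was possible because each group has 1 pooled list. Depth is unknown, so a difference in how many sites could be detected cannot be told apart from a difference in the cells.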
